A study of Mus musculus with 12 samples.

Results

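The genes of the urea cycle and of amino acid catabolism were followed in the livers of 12 mice. The 49 genes were chosen by name, as enzymes and 1 carrier of these pathways, and were looked up by symbol among the 56107 genes measured. Each symbol matched 1 gene, and all 49 passed the filter on low values (1 TPM or more in 3 libraries or more), which left 11980 genes in all. The mice were WT littermates or Lix1l-KO animals and were fed either low-fat chow (LFD) or high-fat chow (HFD) over 12 weeks, starting at 6 weeks of age. The 4 groups of 3 livers were WT LFD (animals 4, 7 and 8), KO LFD (2, 4 and 5), WT HFD (1, 2 and 6) and KO HFD (1, 5 and 6), and each liver gave 1 library of poly(A) RNA. The sources used here do not give which part of Lix1l was deleted, in which cells, or the sex of the mice. The series was made to ask how LIX1L acts in a fatty, inflamed liver.

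Breakdown of amino acids releases ammonia, which is toxic, and the liver turns it into urea. Transaminases and glutamate dehydrogenase gather the nitrogen on glutamate and set it free in mitochondria, where carbamoyl phosphate and citrulline are made, and the cycle is completed in the cytosol, where arginase splits arginine into urea and ornithine. The carbon skeletons left behind feed the citric acid cycle, gluconeogenesis or ketone bodies. Hepatocytes are the main site of most of these pathways, and many of the enzymes are known to be raised in rodent liver by fasting, dietary protein, glucagon and glucocorticoids.

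Levels were given as transcripts per 1000000 (TPM), which is scaled to transcript length and to the library's total, so levels of different genes can be set side by side, but the depth of each library is unknown. Each library held 10265 to 11353 genes at 1 TPM or above. Lix1l itself did not check the genotype: it was at 1.92, 0.150 and 1.38 TPM in livers labelled KO on HFD, at 0.900 to 1.73 TPM in WT HFD livers, at 0.210 to 0.780 TPM in livers labelled KO on LFD and at 0.580 to 1.08 TPM in WT LFD livers. Directions between genotypes therefore rest on the labels, and these animals are called livers labelled KO. The 10 hepatocyte markers summed to 91030 to 157400 TPM per library, as the labelled tissue has, and skeletal muscle markers to at most 0.11 TPM. Apoa2 and albumin had the highest means of the 10 (40530 and 30590 TPM over all libraries). Genes of the mitochondrial chromosome took 22.6%, 12.6% and 10.9% of all TPM in KO HFD livers 1, 5 and 6 and 7.53% to 11.6% in the other 9 libraries. Spearman correlations across the tested genes between libraries of a group ran from 0.907 to 0.967. The labels name no batch, and nothing in them says more of the origin of the animals. P-values set differences between groups against the spread between livers within these groups.

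Most of the 49 genes were abundant in liver, and together they took a smaller share of all TPM in the livers labelled KO on HFD than in any other group. In WT LFD livers, 35 of the 49 ranked among the 1000 most abundant tested genes, with a median rank of 656, and 48 of the 49 had a mean over all libraries of at least 10 TPM. Their summed level was 1.83%, 1.79% and 2.13% of all TPM in WT LFD livers 4, 7 and 8, and 2.20%, 1.51% and 2.15% in KO LFD livers 2, 4 and 5. On HFD it was 1.97%, 1.53% and 1.77% in WT livers 1, 2 and 6, against 0.809%, 1.03% and 1.24% in livers 1, 5 and 6 labelled KO. All 3 livers labelled KO on HFD lay below the other 9 libraries. Measured as a share of TPM without the mitochondrial chromosome, the sum was 1.05% to 1.39% in these livers and 1.72% to 2.16% in WT HFD livers, again without overlap. In bulk liver, fewer hepatocytes and less RNA per hepatocyte cannot be told apart.

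**Figure D1:**
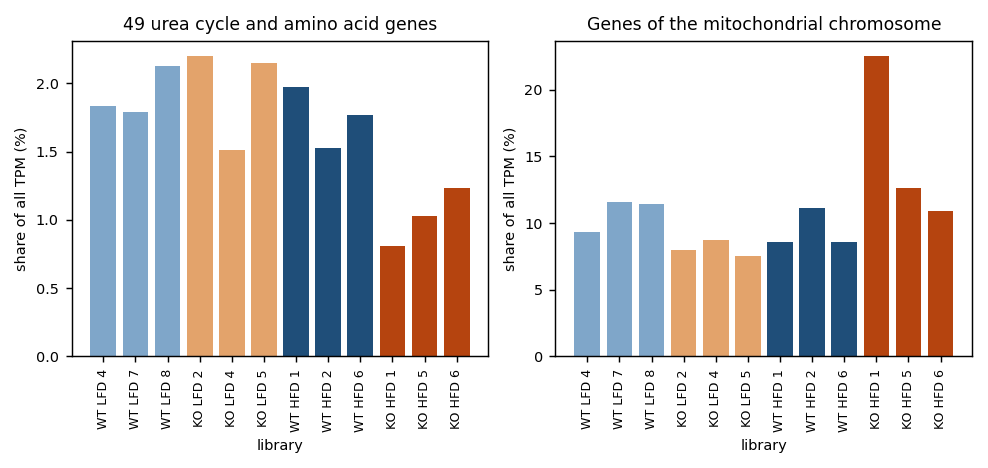
Share of all TPM (%, bars from 0) taken by the 49 genes, left, and by genes of the mitochondrial chromosome, right, in each of the 12 libraries, coloured by group. The 49 genes took 0.809% to 1.24% in the livers labelled KO on HFD and at least 1.51% elsewhere, and KO HFD liver 1 had both the lowest share of these genes and the highest mitochondrial share (22.6%).

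The livers labelled KO on HFD differed among themselves in a regular way. Liver 1 was the lowest of the 3 for 44 of the 49 genes, and liver 6 the highest for 33. For 38 of the 49, the lowest of all 12 libraries was one of these 3, and for 35 it was liver 1. On LFD, liver 4 labelled KO was the lowest of its group for 33 genes, and among WT HFD livers animal 2 was the lowest for 35. These orders were not counted over all tested genes, so they are not known to be particular to the 49. The median coefficient of variation over the 49 genes was 14.5% in WT LFD, 29.3% in KO LFD, 13.0% in WT HFD and 28.3% in KO HFD livers, against 16.8%, 19.7%, 12.3% and 24.5% over all tested genes whose mean was 10 TPM or more. The mitochondrial share was also highest in KO HFD liver 1, and its part in the order of the 3 livers was not tested.

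**Figure D2:**
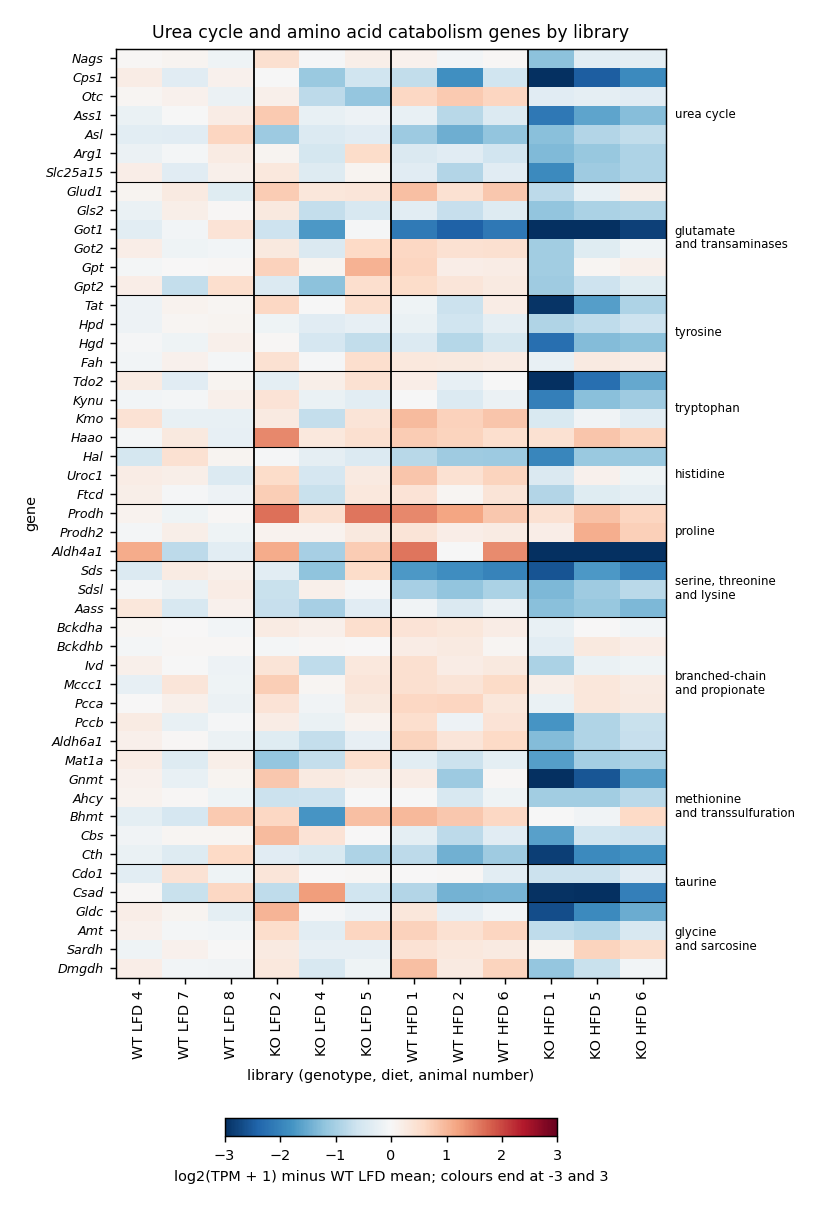
Level of each of the 49 genes (rows, grouped by pathway) in each of the 12 libraries (columns), as the difference in log2(TPM + 1) from the mean of the WT LFD livers, on a colour scale that ends at -3 and 3. Most rows are blue in the 3 KO HFD columns, most strongly in liver 1, whereas WT HFD columns are blue for Got1, Sds and Asl and red for Prodh and Kmo.

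On HFD, 22 of the 49 genes were lower in livers labelled KO than in WT livers, and 0 were higher (limma on log2(TPM + 1), adjusted p below 0.05 over all tested genes). That is 44.9% of the 49, beside 25.8% of all tested genes called lower, 11.2% called higher and 37.0% called in either direction. Among tested genes whose mean was 10 TPM or more, the range in which all but 1 of the 49 lie, 35.1% were lower. The median log2 change of the 49 was -0.79, beside -0.25 over all tested genes, a difference of -0.54. A lower mean was found for 45 of the 49, which was not counted over all tested genes, whose median was itself negative. For 39 of the 49 every liver labelled KO lay below every WT liver, which held for 37.3% of all tested genes, and for 0 of the 49 every one lay above (16.1% of all). The calls reached every pathway group of the list, from 2 of 7 genes of branched-chain and propionate breakdown to 3 of 4 genes each of tryptophan and of glycine breakdown.

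The size of this shift depends on the scaling. With median-ratio scaling the median over all tested genes moved from -0.25 to 0.02 and the all-gene calls from 1347 higher and 3088 lower to 2480 higher and 2132 lower. Under that scaling 17 of the 49 were lower and 1 was higher, with a median of -0.43. With quantile normalization 18 were lower and 1 higher, beside 2117 higher and 2668 lower calls over all genes, and without the mitochondrial chromosome 21 were lower and 0 higher, beside 1699 and 2950. The count also rests on single livers. It was 12 without WT HFD liver 1, and 15 to 28 when any other liver was left out. In each of the 23 alternatives tried, 11 of the 22 were called lower: Tat, Tdo2, Kynu, Aldh4a1, Aass, Pccb, Aldh6a1, Gnmt, Gldc, Amt and Dmgdh.

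**Figure D3:**
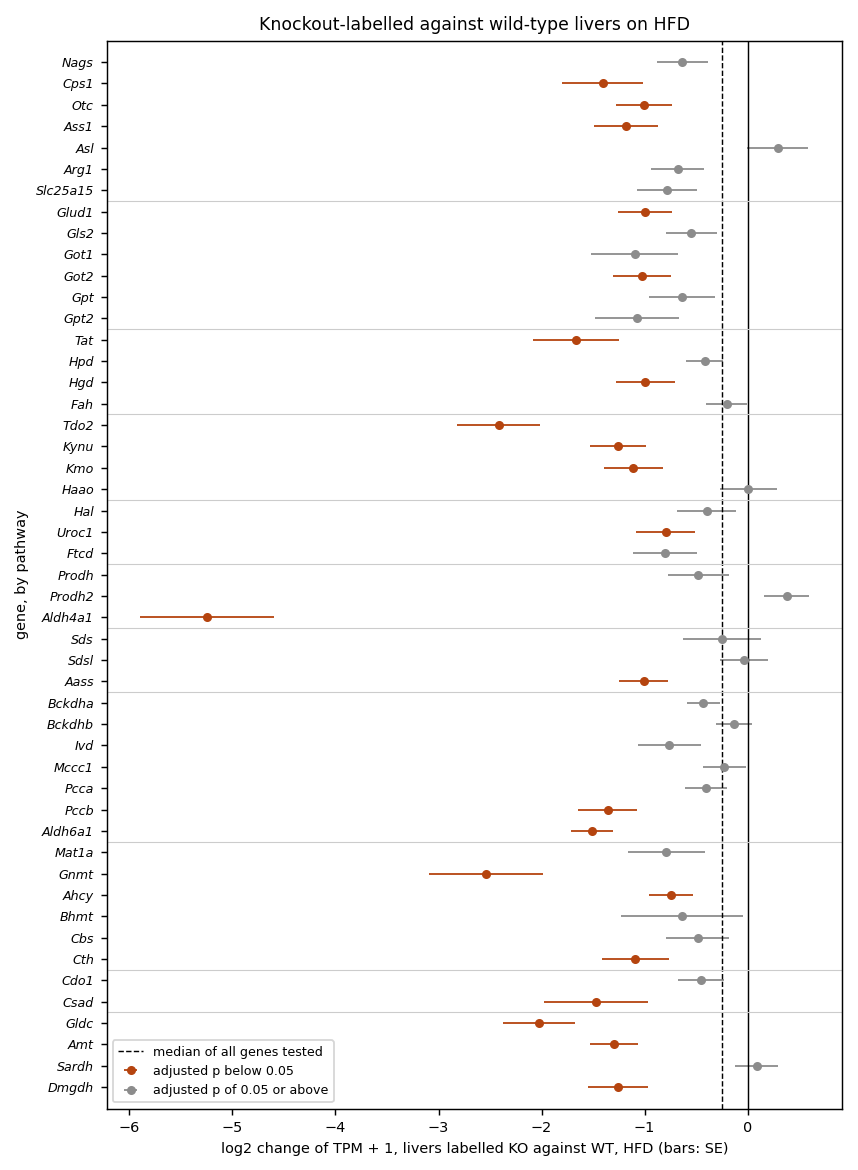
Log2 change of TPM + 1 between livers labelled KO and WT livers on HFD for each of the 49 genes, grouped by pathway, with bars for the SE. The 22 genes with adjusted p below 0.05 (orange) all lie left of the median of all tested genes (dashed line, -0.25), and Asl, Prodh2, Sardh and Haao lie at or right of 0.

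Promoter sequences are shown for genes that were lower and genes that were not, so that the letters before their starts can be set beside the values. RefSeq (GRCm38.p6) gave the bases around a start for 38 of the 49. The 250 bases before the start, 5′ to 3′ on the gene's strand, are printed for Gldc and Gnmt, the called genes of lowest p, and for Hal and Mccc1, the genes of highest p not called, among 17 members whose window lies outside the annotated gene by all but at most 10 bases. Capitals mark matches to the motifs searched.
Gldc (chr19:30175442-30175691, - strand): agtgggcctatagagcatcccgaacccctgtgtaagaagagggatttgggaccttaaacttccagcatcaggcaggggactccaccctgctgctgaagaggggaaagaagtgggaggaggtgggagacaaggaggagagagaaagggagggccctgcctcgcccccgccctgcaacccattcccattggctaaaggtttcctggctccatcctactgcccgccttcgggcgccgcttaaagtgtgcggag
Gnmt (chr17:46729166-46729415, - strand): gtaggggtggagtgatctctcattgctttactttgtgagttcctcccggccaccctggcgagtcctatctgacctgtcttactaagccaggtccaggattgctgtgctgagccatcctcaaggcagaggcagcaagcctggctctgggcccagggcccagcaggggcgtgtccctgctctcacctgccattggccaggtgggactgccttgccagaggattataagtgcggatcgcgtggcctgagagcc
Hal (chr10:93488518-93488767, + strand): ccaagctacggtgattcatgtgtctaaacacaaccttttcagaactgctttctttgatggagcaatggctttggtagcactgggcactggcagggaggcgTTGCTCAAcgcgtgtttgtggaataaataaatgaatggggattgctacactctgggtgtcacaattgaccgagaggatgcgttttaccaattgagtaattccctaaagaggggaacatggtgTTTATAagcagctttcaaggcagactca
Mccc1 (chr3:36000679-36000928, - strand): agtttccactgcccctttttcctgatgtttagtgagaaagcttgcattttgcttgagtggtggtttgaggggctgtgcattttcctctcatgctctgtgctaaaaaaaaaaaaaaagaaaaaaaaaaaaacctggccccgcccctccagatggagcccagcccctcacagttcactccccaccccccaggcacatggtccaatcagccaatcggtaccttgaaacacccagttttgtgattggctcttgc

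The motifs, searched on both strands, were TATAAA of the TATA box, TGACGTCA of the cyclic AMP response element, TGTTCT as a glucocorticoid receptor half-site, TTNNGCAA for C/EBP factors and CAAAGTCCA for HNF4. Of the 4 windows only that of Hal held matches, both on the opposite strand: a TATA box that begins 28 bases before the start and a C/EBP motif that begins 150 bases before it. Over the 38 members, the TATA box was in 13.2% of windows (12.4% of all 32851 RefSeq promoters of that length) and the C/EBP motif in 10.5% (9.56%). The glucocorticoid half-site was in 7.89% (16.1%), and the cyclic AMP and HNF4 motifs were in 0 of 38 (1.55% and 0.384%). Of 19 members called lower and 19 not called, the TATA box was in 3 and 2, the C/EBP motif in 2 and 2 and the half-site in 1 and 2. A match in these letters describes the sequence, and a window without one says nothing of the factor.

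In the urea cycle, 3 of 7 genes were lower on HFD in livers labelled KO, namely Cps1, Otc and Ass1, and Asl was the exception in direction. The share of 42.9% stands beside 25.8% of all tested genes and 35.1% of those whose mean was 10 TPM or more. Cps1 (ENSMUSG00000025991, chr1:67123026-67231259, + strand, GENCODE M21 on GRCm38 as for all positions here) encodes carbamoyl phosphate synthetase, which brings ammonia into the cycle in mitochondria. For Cps1, WT LFD livers held 546, 371 and 516 TPM, livers labelled KO on LFD 464, 217 and 312, WT HFD livers 284, 130.1 and 311 and livers labelled KO on HFD 57.7, 84.2 and 124. The HFD groups came close without overlapping, since WT liver 2 (130.1 TPM) and liver 6 labelled KO (124 TPM) were neighbours. The mean was 88.6 ± 33.4 against 242 ± 97.8 TPM (SD, n = 3), 2.73-fold lower. The log2 change was -1.41 ± 0.39 (SE), with limma adjusted p = 0.0170, and it lost the call without WT HFD liver 1 or 6 or KO HFD liver 1 (adjusted p = 0.0641 to 0.0702).

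Otc (ENSMUSG00000031173, chrX:10252305-10321024, + strand) encodes ornithine transcarbamylase, which makes citrulline. WT LFD livers held 165, 172 and 139.9 TPM, livers labelled KO on LFD 176, 90.8 and 70.3, WT HFD livers 246, 276 and 247 and livers labelled KO on HFD 125, 131 and 125. The WT HFD livers stood above every other library, and the livers labelled KO on HFD lay within 7 TPM of one another, between the highest and lowest livers labelled KO on LFD. On HFD the mean was 2.02-fold lower (log2 change -1.0 ± 0.27, adjusted p = 0.0161), a call lost with median-ratio scaling or quantile normalization (adjusted p of at most 0.108). Ass1 (ENSMUSG00000076441, chr2:31470207-31520672, + strand) encodes argininosuccinate synthetase, the cytosolic step that adds the nitrogen of aspartate. Its levels were 1401, 924 and 1233 TPM in WT HFD livers and 368, 549 and 676 TPM in livers labelled KO on HFD, with 1425, 1615 and 1901 TPM in WT LFD livers and 2832, 1404 and 1472 TPM in livers labelled KO on LFD. The 3 livers labelled KO on HFD were the lowest of all 12. On HFD the Ass1 mean was 2.23-fold lower (log2 change -1.18 ± 0.31, adjusted p = 0.0139, and 0.0609 without WT HFD liver 1). Of the 31-base words of Ass1 transcripts, 43.1% also occur in other genes, mostly the copy Gm5424.

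Asl, which encodes the lyase that follows Ass1 and releases fumarate and arginine, was at 267, 206 and 247 TPM in WT HFD livers and 238, 309 and 339.7 TPM in livers labelled KO on HFD, with 458, 447 and 891 TPM in WT LFD livers and 267, 425 and 447 TPM in livers labelled KO on LFD. The HFD groups overlapped, and both lay below most LFD livers. Its log2 change on HFD was 0.29 ± 0.30 (adjusted p = 0.457). Arg1, the arginase of hepatocytes, was at 757, 796 and 681 TPM in WT HFD livers and 408, 459.9 and 531 TPM in livers labelled KO on HFD, with 894, 975 and 1201 TPM in WT LFD livers and 1075, 707 and 1491 TPM in livers labelled KO on LFD. The HFD groups did not overlap, and Arg1 missed the threshold (log2 change -0.68 ± 0.26, adjusted p = 0.0554). Nags, which makes N-acetylglutamate, the activator that Cps1 needs, was at 35.8, 30.6 and 33.5 TPM in WT HFD livers and 13.5, 26.1 and 26.4 TPM in livers labelled KO on HFD, with 33.7, 34.7 and 29.9 TPM in WT LFD livers and 46.3, 31.7 and 37.0 TPM in livers labelled KO on LFD. Livers 5 and 6 labelled KO lay just below the WT range and liver 1 far below it, and the change did not pass (log2 change -0.63 ± 0.24, adjusted p = 0.0606). Slc25a15, the mitochondrial ornithine carrier, was at 31.7 ± 10.6 against 53.7 ± 11.1 TPM and just missed the threshold too (adjusted p = 0.0551).

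Of 6 genes of glutamate and transaminases, Glud1 and Got2 were lower on HFD. This share of 33.3% is close to the 35.1% of tested genes whose mean was 10 TPM or more (25.8% of all tested genes). Glud1 (ENSMUSG00000021794, chr14:34310727-34345265, + strand) encodes glutamate dehydrogenase, which frees ammonia from glutamate in mitochondria. For Glud1, WT LFD livers held 214, 241 and 157 TPM, livers labelled KO on LFD 340.2, 255 and 259, WT HFD livers 376, 277 and 351 and livers labelled KO on HFD 116, 173 and 228. WT HFD livers were above WT LFD livers, and livers labelled KO went the other way between the diets. On HFD the mean was 1.95-fold lower (log2 change -1.0 ± 0.27, adjusted p = 0.0145, and 0.0613 and 0.0511 without WT HFD liver 1 or 6). Got2, the mitochondrial aspartate transaminase, was at 305, 272 and 275 TPM in WT HFD livers and 95.8, 155 and 180.1 TPM in livers labelled KO on HFD, with 228, 182 and 188 TPM in WT LFD livers and 245, 146 and 301 TPM in livers labelled KO on LFD. The highest liver labelled KO on HFD was well below the lowest WT HFD liver. Got2 was 1.98-fold lower in mean (log2 change -1.03 ± 0.29, adjusted p = 0.0173, and 0.0637 and 0.0554 without WT HFD liver 1 or KO HFD liver 1). The cytosolic aspartate transaminase Got1, the alanine transaminases Gpt and Gpt2 and the liver glutaminase Gls2 had log2 changes of -1.09, -0.63, -1.08 and -0.55, and none of them passed (adjusted p = 0.0567 to 0.136), although their HFD groups did not overlap. An antisense gene, Spryd4, overlaps exons of Gls2 and reached 23.0 TPM.

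Tyrosine breakdown held Tat and Hgd among the lower genes. Tat (ENSMUSG00000001670, chr8:109990437-109999803, + strand) encodes tyrosine aminotransferase, the entry step and a classical target of glucocorticoids. For Tat, WT LFD livers held 478, 571 and 559 TPM, livers labelled KO on LFD 828, 528 and 761, WT HFD livers 489, 343 and 628 and livers labelled KO on HFD 69.0, 169.6 and 279. The livers labelled KO on HFD spread several-fold, with liver 1 the lowest, and all were below the other 9 libraries. Tat was 2.82-fold lower in mean on HFD (log2 change -1.66 ± 0.42, adjusted p = 0.0114). Hgd, which opens the ring of homogentisate, was at 315, 231 and 287 TPM in WT HFD livers and 86.4, 169 and 178 TPM in livers labelled KO on HFD, with 408, 379.8 and 467 TPM in WT LFD livers and 424, 294 and 251 TPM in livers labelled KO on LFD. Its HFD groups did not overlap, and the mean was 1.92-fold lower (log2 change -0.99 ± 0.29, adjusted p = 0.0206, and 0.0544 to 0.0789 without WT HFD liver 1 or 6 or KO HFD liver 1). The other tyrosine genes followed gave smaller values that did not pass. Hydroxyphenylpyruvate dioxygenase, Hpd, had a log2 change of -0.42 (adjusted p = 0.0871). Fumarylacetoacetase, Fah, had -0.20 (adjusted p = 0.441) and overlapping groups. Gstz1, from the list of other amino acid enzymes, was named after its values were seen. It was at 860, 637 and 769 TPM in WT HFD livers and 240, 380 and 402 TPM in livers labelled KO on HFD, without overlap.

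In tryptophan breakdown Tdo2, Kynu and Kmo were lower and Haao did not pass. Tdo2 (ENSMUSG00000028011, chr3:81957090-81976202, - strand) encodes tryptophan dioxygenase, which commits tryptophan to the kynurenine pathway. For Tdo2, WT LFD livers held 948, 629 and 849 TPM, livers labelled KO on LFD 647, 905 and 1095, WT HFD livers 919, 675 and 796 and livers labelled KO on HFD 71.2, 164 and 272. No liver outside the KO HFD group was below 629 TPM, and none inside it was above 272 TPM. Tdo2 was 4.71-fold lower in mean on HFD (log2 change -2.42 ± 0.40, adjusted p = 0.00212). Kynu, the kynureninase, was at 55.9, 42.2 and 49.4 TPM in WT HFD livers and 12.8, 23.0 and 26.4 TPM in livers labelled KO on HFD, with 52.8, 53.4 and 62.5 TPM in WT LFD livers and 74.8, 48.5 and 44.7 TPM in livers labelled KO on LFD. These 3 livers were again the lowest of all 12, and Kynu was 2.37-fold lower in mean (log2 change -1.26 ± 0.27, adjusted p = 0.00584). The kynurenine hydroxylase Kmo was at 67.0 ± 8.16 against 145 ± 13.9 TPM (log2 change -1.11 ± 0.29, adjusted p = 0.0126, and 0.0515 without WT HFD liver 1). Haao, the dioxygenase that acts after Kynu, was at 337, 319 and 281 TPM in WT HFD livers and 273, 353 and 317 TPM in livers labelled KO on HFD, with groups that overlapped and a log2 change of 0.01 ± 0.28 (adjusted p = 0.989).

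Histidine breakdown gave 1 call of 3, close to the threshold, beside 25.8% of all tested genes called lower. Uroc1, the urocanase, was at 108, 83.3 and 95.7 TPM in WT HFD livers and 44.5, 66.2 and 54.7 TPM in livers labelled KO on HFD, with 70.9, 68.6 and 44.9 TPM in WT LFD livers and 89.3, 41.9 and 72.8 TPM in livers labelled KO on LFD. The HFD groups did not overlap, and the livers labelled KO on HFD lay within the LFD range. Its log2 change of -0.80 ± 0.28 passed (adjusted p = 0.0460) but was called in only 9 of 23 alternatives, with adjusted p up to 0.153. Ftcd, which passes the last carbon of histidine to folate, was at 138, 108 and 136 TPM in WT HFD livers and 55.7, 80.1 and 83.9 TPM in livers labelled KO on HFD, with 118, 101 and 93.6 TPM in WT LFD livers and 174, 65.1 and 128 TPM in livers labelled KO on LFD, and its groups on HFD did not overlap either. Ftcd missed the threshold (log2 change -0.80 ± 0.31, adjusted p = 0.0612), as did histidine ammonia-lyase, Hal, at 75.9 ± 23.1 against 97.1 ± 9.72 TPM (adjusted p = 0.287).

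Among the proline genes Aldh4a1 gave the largest log2 change of the 49, and its value was smaller when summed with a gene that shares its exons. Aldh4a1 (ENSMUSG00000028737, chr4:139622866-139649690, + strand) encodes the mitochondrial dehydrogenase that turns pyrroline-carboxylate, from proline and hydroxyproline, into glutamate. For Aldh4a1, WT LFD livers held 85.0, 22.1 and 31.1 TPM, livers labelled KO on LFD 86.0, 18.9 and 66.7, WT HFD livers 120.4, 38.4 and 105 and livers labelled KO on HFD 0.380, 0.890 and 2.57. The livers labelled KO on HFD were all below 3 TPM, and the other groups each spread several-fold. The log2 change on HFD was -5.25 ± 0.65 (adjusted p = 7.09e-04). Gm21969, an annotated read-through gene on the same strand, holds exons of Aldh4a1, which shares 31% of its 31-base words with it, and stood at 23.6, 37.5 and 41.2 TPM in the livers labelled KO on HFD and 16.4, 32.1 and 10.2 TPM in WT HFD livers. The sum of both genes was 23.9, 38.4 and 43.7 TPM in livers labelled KO on HFD and 137, 70.5 and 116 TPM in WT HFD livers, still without overlap. Refitted as that sum, chosen after the values were seen, the log2 change was -1.57 (adjusted p = 0.0084). Prodh2, the hydroxyproline dehydrogenase, was at 139.9, 124 and 128 TPM in WT HFD livers and 122, 228 and 175 TPM in livers labelled KO on HFD, with 103, 121 and 98.1 TPM in WT LFD livers and 115, 114 and 130.4 TPM in livers labelled KO on LFD. KO HFD liver 5 was the highest of all 12 libraries and liver 1 the lowest on HFD, and the change did not pass (log2 change 0.38 ± 0.22, adjusted p = 0.182). Prodh2 was called higher with median-ratio scaling, quantile normalization, array weights or without KO HFD liver 1 (lowest adjusted p = 4.57e-04). Prodh, which oxidises proline, was at 105, 88.8 and 68.5 TPM in WT HFD livers and 52.9, 72.2 and 60.9 TPM in livers labelled KO on HFD, with overlapping groups (log2 change -0.48 ± 0.30, adjusted p = 0.215).

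Of the serine, threonine and lysine genes, the lysine enzyme Aass was lower and the serine dehydratases did not pass the test. Aass, which carries out the opening steps of lysine breakdown in mitochondria, was at 80.1, 63.4 and 77.0 TPM in WT HFD livers and 35.4, 39.0 and 33.3 TPM in livers labelled KO on HFD, with 109.8, 61.9 and 95.0 TPM in WT LFD livers and 53.1, 43.0 and 68.4 TPM in livers labelled KO on LFD. All 3 livers labelled KO on HFD lay below the other 9, and 2 of the livers labelled KO on LFD came next below the WT range of HFD. Aass was 2.05-fold lower in mean on HFD (log2 change -1.01 ± 0.24, adjusted p = 0.00826). Sds, the serine dehydratase, was at 67.1, 60.1 and 54.7 TPM in WT HFD livers and 36.3, 67.0 and 53.7 TPM in livers labelled KO on HFD, and its groups overlapped (log2 change -0.25 ± 0.38, adjusted p = 0.627). Its relative Sdsl had a log2 change of -0.04 ± 0.23 (adjusted p = 0.916), and the signs of Sds and Sdsl turned with median-ratio scaling and quantile normalization. The antisense neighbour Plbd2 overlaps Sds and reached 22.4 TPM.

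In the breakdown of branched-chain amino acids and propionate, 2 of 7 genes were lower, a share close to the 25.8% of all tested genes. Aldh6a1 (ENSMUSG00000021238, chr12:84430717-84451004, - strand) encodes methylmalonate semialdehyde dehydrogenase of valine breakdown. For Aldh6a1, WT LFD livers held 105, 97.0 and 83.1 TPM, livers labelled KO on LFD 73.0, 57.7 and 80.2, WT HFD livers 152, 123 and 143 and livers labelled KO on HFD 38.0, 50.2 and 57.9. WT HFD livers were the highest group and the livers labelled KO on HFD the lowest, and the latter overlapped the livers labelled KO on LFD by less than 1 TPM. On HFD Aldh6a1 was 2.86-fold lower in mean (log2 change -1.51 ± 0.20, adjusted p = 8.87e-04). Pccb, the beta subunit of propionyl-CoA carboxylase, was at 97.3, 61.4 and 91.3 TPM in WT HFD livers and 19.5, 36.5 and 42.9 TPM in livers labelled KO on HFD, with 82.1, 59.2 and 66.9 TPM in WT LFD livers and 80.8, 60.2 and 73.9 TPM in livers labelled KO on LFD. Its 3 livers labelled KO on HFD were the lowest of all 12, 2.53-fold below WT in mean (log2 change -1.36 ± 0.29, adjusted p = 0.00537). The alpha subunit Pcca, at 36.9 ± 7.33 against 48.8 ± 5.69 TPM, did not pass (log2 change -0.40 ± 0.20, adjusted p = 0.136). Exons of Pcca overlap those of the antisense gene Ggact, which reached 101 TPM. Bckdha and Bckdhb, of the branched-chain dehydrogenase complex, Ivd and Mccc1, of leucine breakdown, had log2 changes of -0.43, -0.13, -0.76 and -0.23 and did not pass (adjusted p = 0.0528 to 0.578).

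Methionine and transsulfuration held Bhmt, the gene of the highest mean level in the list, and 3 of 6 genes were lower. Among all tested genes 25.8% were lower, and 35.1% of those whose mean was 10 TPM or more. Gnmt (ENSMUSG00000002769, chr17:46725664-46729168, - strand) encodes glycine N-methyltransferase, which uses up surplus S-adenosylmethionine. For Gnmt, WT LFD livers held 1853, 1446 and 1790.3 TPM, livers labelled KO on LFD 2957, 2029 and 1893, WT HFD livers 1975, 791 and 1724 and livers labelled KO on HFD 87.0, 283 and 549. On HFD the highest liver labelled KO was below the lowest WT liver, animal 2, which itself stood well under its group. Gnmt was 4.89-fold lower in mean (log2 change -2.54 ± 0.55, adjusted p = 0.00600). Ahcy, the hydrolase of S-adenosylhomocysteine, was at 1171, 849 and 1083 TPM in WT HFD livers and 574, 580.5 and 682 TPM in livers labelled KO on HFD, with 1270.2, 1216 and 1087 TPM in WT LFD livers and 765, 769 and 1174 TPM in livers labelled KO on LFD. The groups did not overlap on HFD, and the change was smaller (log2 change -0.75 ± 0.21, adjusted p = 0.0198). It lost the call with median-ratio scaling (adjusted p = 0.135) and without WT HFD liver 1 or 6 or KO HFD liver 5 (0.0562 to 0.0851). Ahcy is uncertain, since 71.4% of its 31-base words occur in other genes such as Gm4737. Cth, the cystathionine lyase that yields cysteine, was at 94.0 ± 31.9 against 195 ± 43.5 TPM (log2 change -1.09 ± 0.33, adjusted p = 0.0238, and 0.0683 to 0.0935 without WT HFD liver 1 or 6 or KO HFD liver 1). Cth also lost the call with median-ratio scaling, quantile normalization or no filter (adjusted p = 0.0686, 0.0580 and 0.0555). Mat1a, which makes S-adenosylmethionine, Cbs, which forms cystathionine, and Bhmt, which remakes methionine from betaine, had log2 changes of -0.79, -0.48 and -0.64 and did not pass (adjusted p = 0.116 to 0.410). Bhmt ranged from 428 to 2742 TPM within the KO LFD group alone, and 29.8% of its 31-base words occur in other genes, most often Gm5096.

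Taurine is made from cysteine by Cdo1 and Csad in turn. Csad, the decarboxylase, was at 54.3, 37.0 and 38.0 TPM in WT HFD livers and 12.2, 10.8 and 23.8 TPM in livers labelled KO on HFD, with 104, 63.7 and 156 TPM in WT LFD livers and 59.3, 242 and 66.7 TPM in livers labelled KO on LFD. WT HFD livers were already below every LFD liver, and the livers labelled KO on HFD were lower again. Csad passed on HFD (log2 change -1.47 ± 0.51, adjusted p = 0.0397), but in only 12 of 23 alternatives. Without WT LFD liver 4, WT HFD liver 1, 2 or 6, or KO HFD liver 1 or 5 its adjusted p was 0.0503 to 0.126. Cdo1, the cysteine dioxygenase, was at 1162, 1183 and 927 TPM in WT HFD livers and 739, 739 and 909 TPM in livers labelled KO on HFD, with 936, 1571 and 1054 TPM in WT LFD livers and 1495, 1159 and 1190.0 TPM in livers labelled KO on LFD. Its HFD groups did not overlap by a small gap, and the change did not pass (log2 change -0.45 ± 0.23, adjusted p = 0.133).

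Glycine cleavage and the sarcosine branch held 3 lower genes of 4, beside 25.8% of all tested genes and 35.1% of those whose mean was 10 TPM or more. Gldc (ENSMUSG00000024827, chr19:30098447-30175429, - strand), the decarboxylase of the glycine cleavage system and the first of the promoters shown, is one of the less abundant genes of the list. For Gldc, WT LFD livers held 25.7, 23.5 and 18 TPM, livers labelled KO on LFD 46.0, 21.6 and 19.8, WT HFD livers 28.2, 18.4 and 20.9 and livers labelled KO on HFD 2.66, 5.15 and 7.20. All 3 livers labelled KO on HFD lay far below the other 9 libraries. Gldc was 4.50-fold lower in mean on HFD (log2 change -2.02 ± 0.35, adjusted p = 0.00242). Amt, the aminomethyltransferase of the same complex, was at 24.5, 20.7 and 23.7 TPM in WT HFD livers and 8.35, 7.70 and 10.2 TPM in livers labelled KO on HFD, with 16.2, 14.2 and 13.9 TPM in WT LFD livers and 21.6, 11.6 and 23.5 TPM in livers labelled KO on LFD. Again the livers labelled KO on HFD were the lowest of all 12, with a 2.62-fold lower mean than WT (log2 change -1.30 ± 0.24, adjusted p = 0.00279). Dmgdh, which demethylates dimethylglycine to sarcosine, was at 82.3 ± 30.8 against 192 ± 41.4 TPM (log2 change -1.26 ± 0.29, adjusted p = 0.00790). Sardh, which takes the next step from sarcosine to glycine, was at 414 ± 82.1 against 385 ± 25.1 TPM, with overlapping groups (log2 change 0.09 ± 0.21, adjusted p = 0.759).

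**Figure D4:**
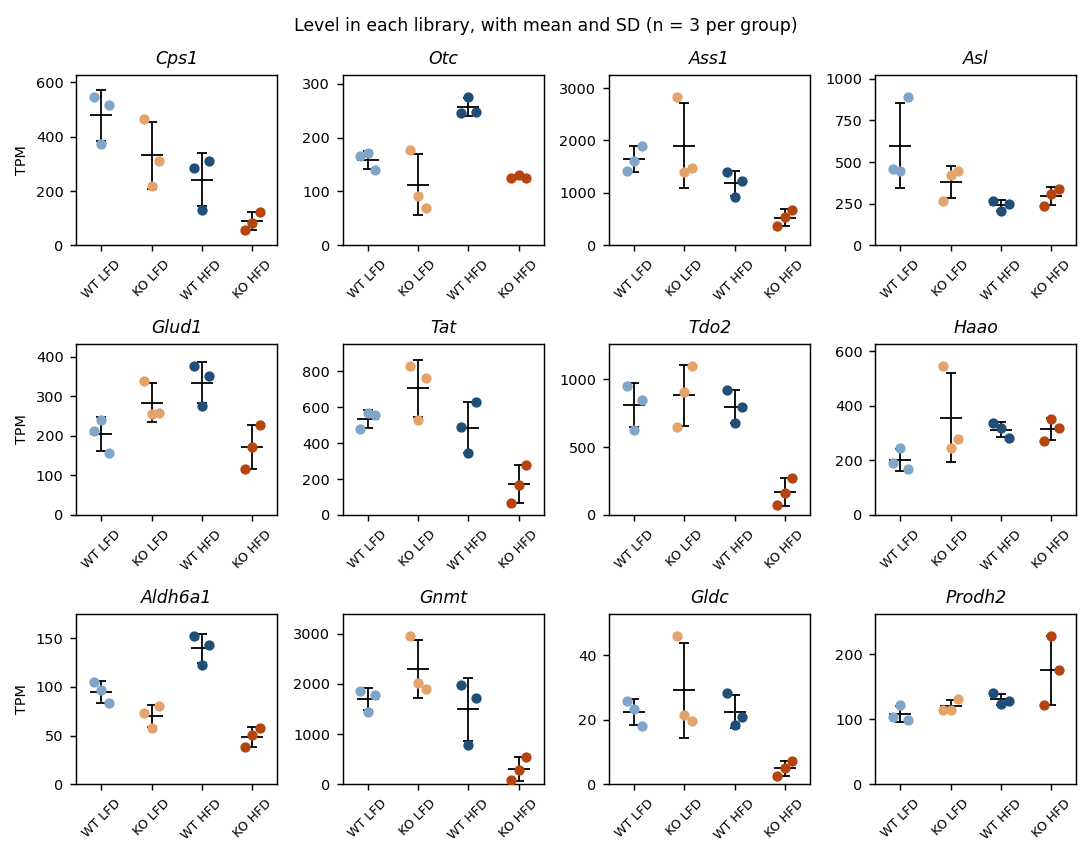
Level in TPM (linear axes from 0) of 12 of the genes in each library, with the mean and SD of the 3 livers of each group. Otc and Aldh6a1 are highest in WT HFD livers, Tat, Tdo2, Gnmt and Gldc are low in the KO HFD group alone, and Asl, Haao and Prodh2 are not lower there than in WT HFD livers.

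On LFD, 0 of the 49 genes were called between livers labelled KO and WT livers by limma, beside 0.159% of all tested genes (0.0668% lower, 0.0918% higher). Unadjusted p was below 0.05 for 4 of the 49, beside 12.7% of all tested genes, and 1 gene was called without KO LFD liver 4, the only alternative of 23 with a call. The median log2 change was 0.00, beside 0.07 over all tested genes. Every liver labelled KO lay above every WT liver for 6 genes (Glud1, Gpt, Haao, Prodh, Bckdha and Gnmt), beside 11.2% of all tested genes, and below for 1 (Aldh6a1), beside 6.35%. Prodh gave the lowest p: it was at 41.5, 34.9 and 39.4 TPM in WT LFD livers and 124, 53.8 and 119.7 TPM in livers labelled KO on LFD. Livers 2 and 5 labelled KO were about 3 times the WT level and liver 4 lay between. The log2 change of 1.25 ± 0.30 did not pass (adjusted p = 0.126), and without KO LFD liver 4 it did (0.0143).

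In WT livers HFD against LFD gave 0 calls among the 49 by limma, beside 0.309% of all tested genes (0.0584% lower, 0.25% higher), but mitochondrial and cytosolic enzymes leaned in opposite directions. Unadjusted p was below 0.05 for 18 of the 49, beside 12.1% of all tested genes. The 24 enzymes and carriers of mitochondria had a median log2 change of 0.37, with 19 positive, and the 25 of the cytosol a median of -0.35, with 19 negative, beside 0.08 over all tested genes. All HFD livers lay above all LFD livers for 15 mitochondrial and 4 cytosolic genes (15.2% of all tested genes), and below for 3 mitochondrial and 12 cytosolic genes (8.81%). This split was noticed with the values known and has no test of its own. Leaving out KO LFD liver 4, 5 or 2 or KO HFD liver 1 gave 3, 2, 1 and 1 calls, and the other alternatives gave 0 to 4, except weighting libraries by quality, which gave 14 higher and 10 lower.

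The lowest p of this diet comparison belonged to Got1, at 172, 203 and 285 TPM in WT LFD livers and 48.6, 39.2 and 47.6 TPM in WT HFD livers. Every HFD liver was far below every LFD liver, a 4.87-fold lower mean. Its log2 change of -2.23 ± 0.42 lay just above the threshold (adjusted p = 0.0538), and 9 of 23 alternatives called it. Sds, at 168, 266 and 245 TPM on LFD and 67.1, 60.1 and 54.7 TPM on HFD, and Asl, at 598 ± 254 and 240.3 ± 31.2 TPM, had the same direction without passing (log2 changes -1.86 and -1.24, adjusted p = 0.0800 and 0.113). On the other side were Prodh (38.6 ± 3.36 TPM on LFD, 87.6 ± 18.6 TPM on HFD), Glud1 and all 7 branched-chain and propionate genes, whose log2 changes ran from 0.19 to 0.55 with 0 calls.

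**Figure D5:**
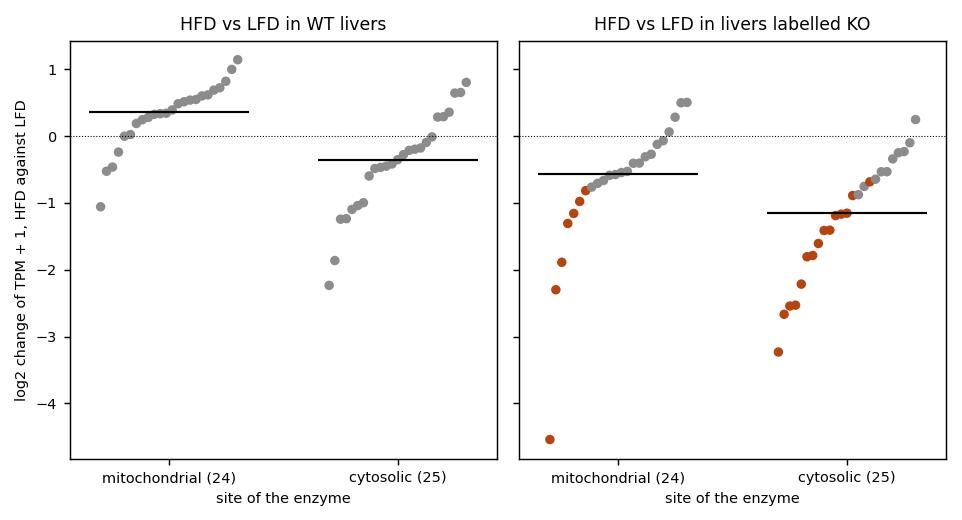
Log2 change of TPM + 1 on HFD against LFD for the 24 mitochondrial and 25 cytosolic members, in WT livers (left) and livers labelled KO (right), with 1 point per gene, orange where adjusted p is below 0.05, and a line at each median. In WT livers the medians are 0.37 and -0.35 with no call, and in livers labelled KO -0.56 and -1.15 with 7 and 15 lower calls.

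In livers labelled KO, HFD against LFD gave 22 lower and 0 higher genes of the 49 (44.9%), beside 17.0% of all tested genes called lower, 6.73% called higher and 23.8% called in all. Among genes whose mean was 10 TPM or more 23.8% were lower. The median log2 change was -0.71, beside -0.22 over all tested genes, and for 28 of the 49 all HFD livers lay below all LFD livers (27.7% of all tested genes). The cytosolic genes had a median of -1.15 with 15 of 25 called and the mitochondrial genes -0.56 with 7 of 24. This comparison shares the KO HFD livers with that between genotypes on HFD, so the lists of calls are not independent. The lowest p belonged to Aldh4a1, Gldc, Tdo2, Got1 and Gnmt. Got1 was at 139, 64.5 and 209 TPM on LFD and 11.3, 25.1 and 30.2 TPM on HFD in livers labelled KO, again without overlap (6.19-fold lower mean, log2 change -2.53 ± 0.42, adjusted p = 0.00399). Gnmt was 7.49-fold lower on HFD (log2 change -3.23 ± 0.55, adjusted p = 0.00411), Gldc 5.82-fold (-2.30 ± 0.35, 0.00307) and Tdo2 5.22-fold (-2.54 ± 0.40, 0.00337). Aldh4a1 had a log2 change of -4.54 ± 0.65 (adjusted p = 0.00235), which as the sum with Gm21969 became -1.08 (adjusted p = 0.0525).

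Within the urea cycle 5 of 7 genes were lower on HFD in livers labelled KO: Ass1 (log2 change -1.80 ± 0.31, adjusted p = 0.00429), Cps1 (-1.89 ± 0.39, 0.00839), Slc25a15 (-1.31 ± 0.29, 0.0112), Arg1 (-1.17 ± 0.26, 0.0104) and Nags (-0.82 ± 0.24, 0.0334). That is 71.4% of the 7, beside 17.0% of all tested genes and 23.8% of those whose mean was 10 TPM or more. Nags lost the call without KO LFD liver 2 or 5 or KO HFD liver 1 (adjusted p = 0.0705 to 0.106), without the filter (0.0650) and with only the groups compared (0.129). With only the groups compared Arg1 (0.0641) and Slc25a15 (0.0579) lost theirs too. Otc, with a log2 change of 0.28, and Asl, with -0.34, did not pass. Over the whole list 10 genes were called when only the 2 groups compared entered the fit, and 17 to 27 when any liver was left out.

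The difference between the diets in the genotype effect, tested as an interaction, passed for 8 of the 49, all with a lower value on HFD (16.3%, beside 9.66% of all tested genes called, 7.12% called lower, 2.54% called higher and 11.5% called lower among genes whose mean was 10 TPM or more). They were Aldh4a1, Amt, Gldc, Tdo2, Prodh, Glud1, Gnmt and Aldh6a1. The genotype difference of Tdo2 was 0.11 on LFD and -2.42 on HFD in log2 (interaction -2.53 ± 0.57, adjusted p = 0.0279). Glud1 went from 0.49 on LFD to -1.0 on HFD (interaction -1.49 ± 0.38, adjusted p = 0.0368), and Prodh from 1.25 to -0.48 (-1.73 ± 0.42, 0.0332). By group means, all of the 8 except Aldh6a1 were higher in livers labelled KO on LFD and lower on HFD. No difference on LFD was called, nor was that of Prodh on HFD, so the change of sign is not established. Gnmt, Gldc, Amt and Aldh6a1 gave -2.95, -2.30, -1.58 and -1.08, with adjusted p = 0.0239 to 0.0418. Aldh4a1 gave -5.54 (0.0165), or -1.71 (adjusted p = 0.0569) as the sum with Gm21969. The count of 8 rests on single livers: it was 0 without WT LFD liver 8 or WT HFD liver 1, 1 without WT LFD liver 7 or WT HFD liver 6, 2 and 3 without KO LFD liver 5 and 2, 5 without KO HFD liver 5, 14 without KO HFD liver 6 and 20 without KO LFD liver 4. Without the filter on low values it was 1. In the fits with a liver left out all 8 log2 changes stayed negative.

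Other enzymes of amino acid catabolism were listed beside the 49. Of 52 listed, 50 were tested, and on HFD 25 were lower and 2 higher in livers labelled KO (50% lower), with a median log2 change of -0.70, beside 25.8% of all tested genes called lower, 35.1% of those whose mean was 10 TPM or more, and 11.2% called higher. Suox, the sulfite oxidase at the end of cysteine breakdown, was at 61.0, 41.4 and 53.2 TPM in WT HFD livers and 4.85, 11.4 and 15.8 TPM in livers labelled KO on HFD, without overlap (log2 change -2.29 ± 0.38, adjusted p = 0.00221). Mmut, the mutase that follows propionyl-CoA carboxylase, was at 47.3, 32.5 and 48.0 TPM in WT HFD livers and 9.15, 12.2 and 14.1 TPM in livers labelled KO on HFD, also without overlap (log2 change -1.76 ± 0.29, adjusted p = 0.00194). Afmid, which hydrolyses formylkynurenine between Tdo2 and Kynu, was lower too (log2 change -1.76 ± 0.29, adjusted p = 0.00212), as was the lysine dehydrogenase Aldh7a1 (-1.43 ± 0.26, 0.00268). The 2 higher genes were Mcee (0.62 ± 0.22, 0.0458), the epimerase before Mmut, and Gatm (0.80 ± 0.27, 0.0370), of creatine synthesis, both named after their values were seen. Gatm lay near the filter of 1 TPM, at 0.68, 0.28 and 0.31 TPM in WT HFD livers and 0.83, 1.46 and 2.27 TPM in livers labelled KO on HFD. In the list, HFD against LFD gave 0 calls in WT livers and 13 lower and 1 higher in livers labelled KO (17.0% and 6.73% of all tested genes), LFD 0 calls between genotypes, and the interaction 7 lower (7.12% of all tested genes). At unadjusted p below 0.05 limma gave 10 of this list between diets in WT livers and 7 between genotypes on LFD.

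Some transporters and regulators named for these pathways were also lower on HFD in livers labelled KO, where 25.8% of all tested genes, and 35.1% of those whose mean was 10 TPM or more, were called lower. Of 15 amino acid and ammonia transporters 13 were tested, 5 were lower and 0 higher (38.5%, median log2 change -1.02). All 13 had a negative change, a direction that was not counted over all tested genes. Slc7a2, which takes up arginine and ornithine, was at 46.7, 33.0 and 39.5 TPM in WT HFD livers and 11.2, 13.6 and 12.0 TPM in livers labelled KO on HFD, with 83.8, 69.1 and 79.4 TPM in WT LFD livers and 35, 28.4 and 43.0 TPM in livers labelled KO on LFD. The KO HFD livers were the lowest and the WT LFD livers the highest, without overlap between the HFD groups (log2 change -1.61 ± 0.19, adjusted p = 6.83e-04). Rhbg, an ammonia transporter of hepatocytes around the central vein, was at 7.94, 8.13 and 7.37 TPM in WT HFD livers and 1.92, 2.85 and 2.13 TPM in livers labelled KO on HFD, with 3.02, 1.5 and 2.03 TPM in WT LFD livers and 4.26, 5.41 and 2.77 TPM in livers labelled KO on LFD. WT HFD livers stood above all others, and Rhbg rose on HFD in WT livers (log2 change 1.5 ± 0.23, adjusted p = 0.0258), was lower in livers labelled KO on HFD (-1.43 ± 0.23, 0.00189) and passed in the interaction (-2.11 ± 0.32, 0.0136). Slc38a4, an amino acid transporter of the plasma membrane, and Slc25a12, a mitochondrial aspartate and glutamate carrier, were lower as well (log2 changes -1.34 ± 0.26 and -1.08 ± 0.29, adjusted p = 0.00369 and 0.0155). Slc25a12 lost the call without WT HFD liver 1 or 6 or KO HFD liver 1 (adjusted p of at most 0.0627). Of 14 regulators 8 were lower and 0 higher on HFD (57.1%, median -0.63), 6 did not pass, and 4 of the 14 had a positive change. They included Klf15, a factor known to drive amino acid breakdown in mouse liver, at 66.8, 62.8 and 72.3 TPM in WT HFD livers and 23.0, 38.8 and 40.7 TPM in livers labelled KO on HFD (log2 change -1.0 ± 0.23, adjusted p = 0.00740). Cebpa, at 77.8 ± 18.1 against 156 ± 7.71 TPM, the glucocorticoid receptor gene Nr3c1, at 4.79 ± 0.943 against 8.89 ± 1.75 TPM, and Ppargc1a, at 0.277 ± 0.0833 against 1.07 ± 0.199 TPM, were lower as well (adjusted p = 0.0103 to 0.0175). Ppargc1a was below 1 TPM in every liver labelled KO and passed the filter through WT livers alone. Its mean on LFD was 0.757 TPM in livers labelled KO against 1.86 TPM in WT livers, without a call. The call of Nr3c1 was lost without WT HFD liver 1 or 6 or KO HFD liver 1 (adjusted p of at most 0.0745). Others called lower, named after their values were seen, included Ppara, Hnf4a and Creb3l3, and each of these lost its call without WT HFD liver 1 or 6 or KO HFD liver 1 or 5 (adjusted p of at most 0.167, 0.456 and 0.133 over all alternatives).

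Markers of some other liver cell types leaned higher in livers labelled KO on both diets, with calls on HFD only and some overlap between groups. Of 11 endothelial markers 10 were higher on HFD in livers labelled KO, where 11.2% of all tested genes were called higher. Of the 11, Lyve1, Tek and Tie1 were at most 0.80, 0.56 and 0.93 TPM in WT livers. These genes passed the filter through livers labelled KO alone, so they could hardly have been counted as lower there. Endothelial markers summed to 101 to 117 TPM against 37.2 to 49.6 TPM in WT HFD livers. Of 12 Kupffer cell and macrophage markers 6 were higher, with sums that overlapped (75.3 to 455 against 36.5 to 91.0 TPM). Of 9 tested stellate cell and fibroblast markers 4 were higher (206 to 240 against 67.2 to 82.5 TPM). None of these markers was at 0 in all livers of a group. On LFD the livers labelled KO had sums of 96 to 109 TPM for endothelial markers against 52.3 to 62.1 TPM in WT livers. Sums were 166 to 505 against 67.1 to 123 TPM for Kupffer cell markers and 132 to 214 against 84.7 to 133 TPM, which overlap, for stellate cell markers. There were 0 calls in each list and 0 among the 49, beside 0.159% of all tested genes. In the same order, median log2 changes were 0.72, 1.53 and 0.72 on LFD and 0.93, 1.61 and 0.55 on HFD. Unadjusted limma p on LFD was below 0.05 for 10 of 11, 11 of 12 and 7 of 9 tested markers, beside 12.7% of all tested genes. Hepatocyte marker sums on LFD were 92610 to 116700 TPM in livers labelled KO against 109800 to 157400 TPM in WT livers. Log2 changes of these 10 markers ran from -0.97 to 0.95 with 0 calls, and unadjusted limma p was below 0.05 for 4. Alb was lower (17654 to 22324 against 30047 to 51216 TPM) and Ambp higher (4473 to 5211 against 2103 to 2954.5 TPM), both without overlap. Of 10 hepatocyte markers 4 were lower and 0 higher on HFD, with sums of 91030 to 118300 TPM against 125400 to 130400 TPM. Over all tested genes 25.8% were called lower there, and 35.1% of those whose mean was 10 TPM or more. Of 6 cholangiocyte markers, 3 were tested and 2 were lower, with sums of 25.9 to 32.4 TPM against 41.3 to 69.2 TPM. Of 5 adipose markers, 2 were tested and both were lower, with sums of 4.99 to 22.7 TPM against 56.4 to 254 TPM. Nearly all of the WT HFD sum was Cfd, at 178, 245 and 50.7 TPM, while Adipoq was at most 0.08 TPM; Lep was at 0 in every HFD liver, Plin1 in the WT and Adipoq in the KO HFD livers. In the T and NK cell, B and plasma cell, neutrophil and erythroid lists 2, 2, 2 and 5 markers were tested. On HFD 1 B and plasma cell marker was called higher, and the other 3 lists gave 0 calls. The part of these cell types and of the mitochondrial share in the levels of the 49 genes was not tested.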

How the data were processed

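RNA of 12 snap-frozen livers was sequenced as poly(A) libraries, per the labels' protocols. The authors deposited 1 table of TPM values for 56107 genes. HISAT2, StringTie and the build mm10 are named, per the submitters' processing notes, without versions; for the annotation and strandedness, the sources used here give nothing. Columns were matched to samples by diet and animal number; knockout columns carry "HO" in their names, while the means of the same groups in that table carry "KO" and differed from recomputed means by at most 3.33e-05 TPM. TPM sums to 1000000 per library and keeps no depth, so no count test or counting interval was used, and precision rests on 3 livers a group. StringTie values assign reads among overlapping genes and copies by estimate, so levels of such genes are uncertain.

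Genes at 1 TPM or more in at least 3 libraries (11980) were taken to log2(TPM + 1), a scale that understates the change of low genes, and fitted with limma 3.58.1 (trend, R 4.3.3) with 4 group means and 8 residual degrees of freedom. P-values were adjusted by Benjamini-Hochberg over all genes tested, with a threshold of 0.05. The self-test on simulated data preceded the fit. Gene positions came from GENCODE M21, and promoters and motifs from RefSeq on GRCm38.p6; of 49 genes 38 matched a promoter there, 5 of them with several starts. Figures were drawn with matplotlib 3.10.9. The genes and lists were chosen with earlier results of these data known. By rule, values in every library are given for 6 urea cycle enzymes, for the 2 genes of lowest p in each other pathway on HFD, for genes called in the interaction and for the 5 of lowest p between diets in livers labelled KO; other lists name up to 4 genes of lowest p. Alternatives covered the pseudocount, filter, scaling, mitochondrial genes, the groups in the fit, array weights, the replicate block and each left-out liver; the sum of Aldh4a1 and Gm21969 was added after the data were seen. The values of 1 listed regulator are not reported here.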

Additional observations from a re-analysis of the deposited data

Results flagged for a closer look

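For 8 of the 49 genes the log2 difference between livers labelled KO and WT livers differed between the diets by a test of the difference itself (limma interaction, adjusted p below 0.05 over all tested genes). The difference on HFD minus that on LFD was -5.54 for Aldh4a1, -2.95 for Gnmt, -2.53 for Tdo2, -2.30 for Gldc, -1.73 for Prodh, -1.58 for Amt, -1.49 for Glud1 and -1.08 for Aldh6a1. For Aldh4a1 the sum with the read-through gene Gm21969 gave -1.71, which did not pass (adjusted p = 0.0569). The values of Aldh4a1 itself had adjusted p = 0.0531 without WT LFD liver 8 and 0.0535 without WT HFD liver 1. None of the 8 passed without WT LFD liver 8 or without WT HFD liver 1.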

How the results depend on the processing

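On HFD the count of genes called between genotypes was 22, and it was 12 to 28 with a liver left out and 35 (34 lower, 1 higher) with array weights. Its median log2 change of -0.79 became -0.43 with median-ratio scaling and -0.91 to -0.62 with a liver left out. On LFD the count was 0 to 1 and the median -0.12 to 0.20 with a liver left out. Between diets in WT livers the count was 1 with a pseudocount of 5, with quantile normalization or without mitochondrial genes, 2 with median-ratio scaling, 4 with only the groups compared and 24 with array weights, and with a liver left out it was 0 to 3 (median -0.03 to 0.13). Between diets in livers labelled KO it was 10 with only the groups compared and 17 to 27 with a liver left out, and the median was -0.39 with median-ratio scaling and -0.92 to -0.51 with a liver left out. The interaction called 1 gene without the filter, 23 with array weights and 0 to 20 with a liver left out, with a median of -0.30 with median-ratio scaling, -0.45 with quantile normalization and -0.96 to -0.56 with a liver left out. In the comparison of genotypes on HFD, signs turned for 7 genes, none of them called there: with median-ratio scaling Fah became 0.16, Sds 0.11, Sdsl 0.27, Bckdhb 0.23 and Mccc1 0.12. With quantile normalization Sds became 0.0736, Sdsl 0.22, Bckdhb 0.18 and Mccc1 0.0816, and with array weights Sds 0.0693 and Bckdhb 0.0894. Sdsl was 0.0489 without mitochondrial genes. With a liver left out Haao ran from -0.082 to 0.10, Sdsl from -0.17 to 0.10, Bckdhb from -0.245 to 0.0515 and Sardh from -0.0302 to 0.26. Animal numbers are shared between groups, but same-numbered livers did not deviate together (correlations -0.255 to 0.102). With the replicate block the counts were 20 on HFD, 0 on LFD, 0 between diets in WT, 21 between diets in KO and 8 for the interaction, with medians of -0.76, 0.03, 0.04, -0.69 and -0.77, and Haao became -0.0325 and Sdsl 0.0005 on HFD. The cause of these moves was not tested, and depth, unknown in TPM, limits genes near 1 TPM.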
